A study of Mus musculus and Homo sapiens with 352 samples.

Results

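The regions described here are the loop anchors that were listed in wild-type CH12 cells and had no identical counterpart in CH12 cells with mutated CTCF. They were chosen by coordinates alone: an anchor was a member when its chromosome, start and end occurred in the wild-type interaction list and not in the mutant list. Of 13547 distinct wild-type anchors, 4452 (32.9%, 95% Wilson interval 32.1 to 33.7%) met this rule and are called absent anchors below. The other 9095 wild-type anchors were in both lists, and the lists together held 16928 distinct anchors. No absent anchor overlapped any mutant anchor by a single base, so a looser match by overlap gives the same 4452.

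CTCF is a DNA-binding protein whose zinc fingers read a motif that has a direction. In loop extrusion, the ring complex cohesin reels in chromatin and is halted at CTCF bound in a facing orientation, so that pairs of CTCF sites become the anchors of loops. Zinc fingers near the middle of the protein read the core of the motif, and zinc fingers 9 to 11, which the mutation affects, are known to contact an upstream element found beside the core at some sites.

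CH12 is a mouse B cell lymphoma line. Its CTCF-bound chromatin contacts were measured by ChIA-PET, in which chromatin is pulled down with an antibody, neighbouring DNA ends are ligated and paired ends are sequenced. There were 2 libraries: 1 of wild-type genotype and 1 of a genotype that the labels name for a CTCF mutation at zinc fingers 9 to 11. Neither had a replicate, and the sources used here do not say whether the mutant line was a single clone, how the mutation was made or which CTCF protein remained. The labels give neither library a treatment of its own, and the cell label was not checked against marker genes, as no expression values were analysed here. Every difference below is therefore between 2 libraries, not between genotypes, and no test was made.

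An interaction is a pair of anchors with a number of supporting tags, and the partner of an anchor is the anchor at the other end. There were 11534 interactions (74198 tags) in the wild-type list and 11820 (82222 tags) in the mutant list. Both lists leave out interactions under 3 tags, so these sums are not library depths, and the sources used here give none. An anchor can be missing from a list because its interactions fell under 3 tags or because no CTCF peak was called there, and these cannot be told apart. Intervals are 95% Wilson intervals for shares and binomial rank intervals for medians. They cover counting error only and treat anchors as independent, although joined and neighbouring anchors share interactions. The same counts in reverse, of the 3381 mutant anchors with no identical wild-type anchor (27.1% of 12476), are given beside the main ones as the mutant-only anchors.

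Absent anchors were mostly ends of single, thinly supported interactions. In the wild-type list 3482 of them (78.2%, 77.0 to 79.4%) had 1 partner, against 57.3% of all wild-type anchors. Another 751 had 2 partners, 169 had 3 and 50 had 4 or more, with a maximum of 7. Anchors in both lists had 1 partner in 47.0% of cases in the wild-type list and up to 12 partners. Mutant-only anchors had 1 partner in 75.5% of cases in the mutant list, so both sets of unmatched anchors were alike in this. Partners and tags come from the list that the rule used, and these values describe the members without being evidence about the mutation.

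The median absent anchor carried 4 tags summed over its interactions (interquartile range 3 to 7, highest 65), against 9 (5 to 17, highest 287) for anchors in both lists. The strongest interaction of 1874 absent anchors (42.1%) had the lowest listed number, 3 tags, and for 1728 of them it was their single interaction. These stood just inside the rule, since 1 tag fewer would have left them out of the wild-type list as well. Just outside it stood 1254 anchors in both lists (13.8%) whose strongest mutant interaction had 3 tags, 1023 of them in a single interaction. At the other end, 275 absent anchors had an interaction of 10 or more tags and 29 had one of 20 or more.

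The share of absent anchors was lower at each step up in the tags of the strongest interaction. It was 55.8% at 3 tags, 43.6% at 4, 32.5% at 5 to 6 and 19.4% at 7 to 9. At 10 to 19 tags it was 11.2% (9.92 to 12.6%) and at 20 or more it was 3.80% (29 of 764, 2.66 to 5.40%). The mutant-only share followed the same course from 52.7% at 3 tags to 6.02% (5.14 to 7.05%) at 10 to 19 tags and 1.76% (17 of 968) at 20 or more. The wild-type share was the higher in all 6 tag classes, and the intervals were apart at 7 to 9 and at 10 to 19 tags only.

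**Figure D1:**
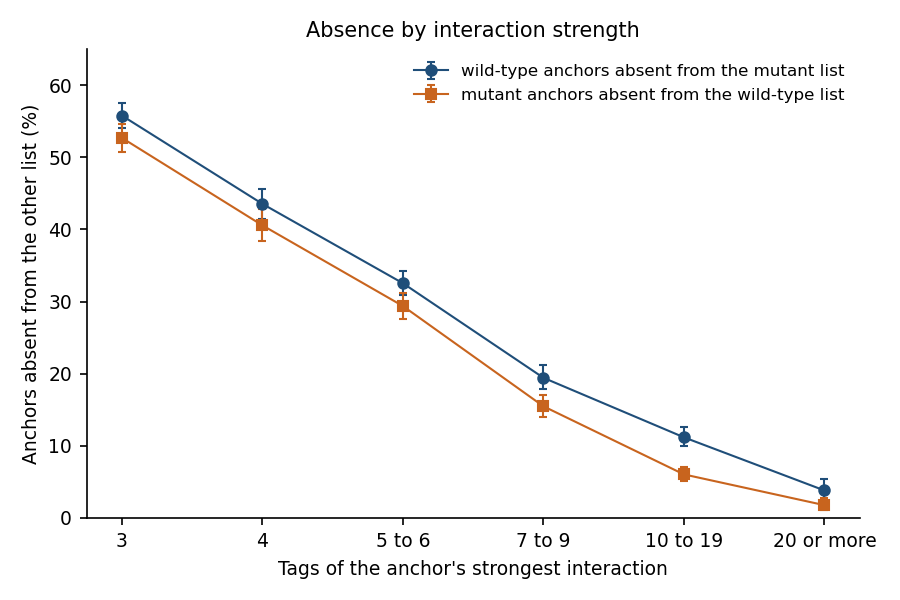
Percentage of anchors absent from the other list (vertical axis) by the tags of the anchor's strongest interaction (horizontal axis), for the wild-type list (circles) and the mutant list (squares), with bars for 95% Wilson intervals. Both fall from over 50% at 3 tags to under 5% at 20 or more, with the wild-type points the higher throughout.

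Partner number gave a like course. The absent share was 44.9% of wild-type anchors with 1 partner, 21.5% with 2, 11.8% with 3, 6.92% with 4 and 3.67% (12 of 327) with 5 or more. For mutant-only anchors these shares were 40.2%, 18.9%, 10.1%, 5.38% and 0.947% (5 of 528).

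Through these anchors 4660 wild-type interactions, 40.4% of that list and 29.3% of its tags, could not be in the mutant list. In 3614 of them 1 end was an absent anchor, and in 1046 both ends were. Their span, the distance between anchor midpoints, was shorter than that of the other wild-type interactions. The median was 121 kb (117 to 125 kb) with an absent anchor at 1 or both ends and 137 kb (133 to 140 kb) with none. Spans under 50 kb made up 21.3% of interactions with 1 absent end and 16.4% of those with none.

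The shorter span was seen at every level of support. It was 129 kb against 156 kb at 3 tags, 125 against 150 kb at 4, and 116 against 138 kb at 5 to 6. It was 104 against 131 kb at 7 to 9 tags and 101 against 119 kb at 10 to 19. At 20 or more tags the medians were 84.1 and 101 kb, but only 25 interactions stood on the absent side. The intervals overlapped at 10 to 19 tags, narrowly, and at 20 or more. In the mutant list, interactions of mutant-only anchors had a median of 151 kb against 153 kb for the rest. Within tag classes they too were mostly the shorter, at 158 against 180 kb at 3 tags and 150 against 163 kb at 4. At 10 to 19 tags they were nearly equal, at 129.7 and 130.2 kb. Only at 7 to 9 tags were they the longer, at 160 against 150 kb. A shorter median was thus seen in most tag classes of both lists, but in the mutant list the intervals overlapped in every class.

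Absent anchors also tended to be the inner partners of their neighbours. At 2068 sides of anchors, a wild-type anchor in both lists reached to both an absent and a kept partner on the same side, giving 4221 pairs. The absent partner was the nearer in 59.6% of pairs (58.1 to 61.0%). In reverse, the mutant-only partner was the nearer in 53.1% (51.6 to 54.7%) of 4014 pairs in the mutant list.

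A CTCF anchor typically reaches to 1 side, the side its motif faces. Of the 970 absent anchors with 2 or more partners, 771 (79.5%, 76.8 to 81.9%) had all of them on 1 side, beside 77.6% of all such wild-type anchors. Because one-sidedness falls as partners are added, the comparison was made at equal partner numbers. With 2 partners 82.8% of absent anchors were one-sided against 85.6% of anchors in both lists, with 3 partners 71.6% against 73.5%, and with 4 or more 56.0% against 55.1%. In each of these classes the intervals overlapped. Of all 5706 ends at absent anchors, 2890 pointed left and 2816 right, so there was no lean to either side. Motif orientation was not read, as no sequence of the build was used here.

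Absent anchors were found on all 20 chromosomes with listed interactions. Among the 19 autosomes their share of the wild-type anchors ran from 28.9% on chromosome 19 to 40.1% on chromosome 16, with a median of 32.5%. It was above the mutant-only share of the same chromosome on 20 of 20 chromosomes. The mutant-only share of autosomes ran from 23.8% on chromosome 14 to 30.4% on chromosome 17.

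Chromosome X stood apart. There 96 of 173 wild-type anchors were absent (55.5%, 48.0 to 62.7%), and its interval lay above that of every autosome. Its anchors were weak, with a median strongest interaction of 4 tags, so the share was also computed as it would be if each tag class had the share of the whole list. That gave 40.6% for chromosome X, 14.9 percentage points under the observed share. With wild-type interactions of 5 or more tags only, 30 of 69 anchors were absent (43.5%, 32.4 to 55.2%).

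The reverse count on chromosome X was also the highest of all chromosomes, at 55 of 132 mutant anchors (41.7%, 33.6 to 50.2%). The chromosome held 106 wild-type interactions with 511 tags and 82 mutant interactions with 387 tags, the opposite order to the whole lists. CTCF peaks at its anchors ranked low in CH12 cells whether or not the anchor was absent. Their median stood at percentile 40.3 of the CH12 list at absent anchors and 43.7 at anchors in both lists, while in B cells the same anchors had median fold percentiles of 94.4 and 95.9. By q-value the B cell medians were less extreme, at percentiles 82.2 and 88.5. Whether this low CH12 rank bears on the share of absent anchors was not tested.

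Chromosome 16 was the highest autosome, with 169 of 421 anchors absent (40.1%, 35.6 to 44.9%) against 35.1% from its tag classes. It too held fewer interactions and tags in the mutant list, 290 with 1687 tags, than in the wild-type list, 338 with 1954 tags. Chromosome 14 combined a share of 34.9% absent (31.3 to 38.7%) with the lowest reverse share of any chromosome.

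**Figure D2:**
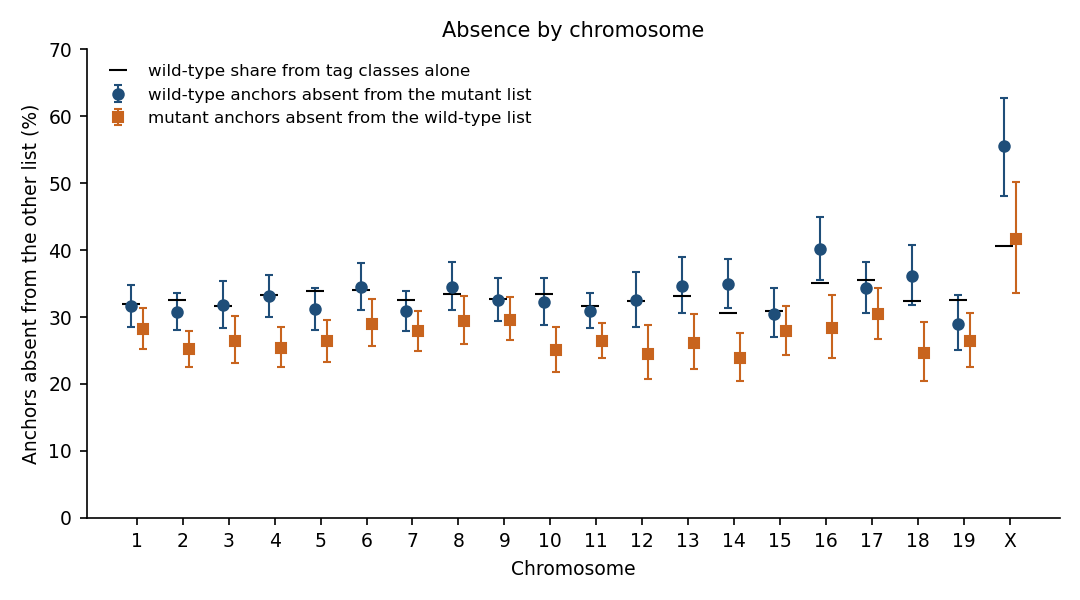
Percentage of anchors absent from the other list (vertical axis) by chromosome (horizontal axis), for wild-type anchors (circles) and mutant anchors (squares), with 95% Wilson intervals; black dashes give the wild-type share computed from tag classes alone. Chromosome X, at 55.5% and 41.7%, is the highest on both counts, and chromosome 16 is the highest autosome for wild-type anchors.

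Along chromosomes, absent anchors stood next to each other more often where they were also joined. When the next wild-type anchor along the chromosome was also a partner, it was absent for 47.2% of absent anchors and 24.1% of kept ones. When it was not a partner, it was absent for 35.6% (34.5 to 36.9%) of absent anchors and 32.5% (31.7 to 33.4%) of kept ones. For mutant-only anchors in the mutant list these pairs were 46.0% against 16.3%, and 31.0% against 28.2%. Joined anchors share an interaction and can leave a list together, so the contrast among partners is partly built into the rule.

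Counted as runs of consecutive wild-type anchors that were all absent, the members formed 2707 runs. Of these, 1751 held a single anchor (39.3% of members). Runs of 3 or more numbered 389 and held 1567 members (35.2%, 33.8 to 36.6%), against 30.0% (28.5 to 31.6%) of mutant-only anchors in runs of their own list. Runs of 5 or more held 14.1% of members against 8.31%. The longest run had 12 anchors, while the longest mutant-only run had 15, so long stretches occurred in both lists.

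The longest runs lay where interactions were few. The run of 12 at chr16:78637010-87285564 (mm9) covered 8.65 Mb with 8 wild-type interactions, none above 6 tags, and the mutant list had 2 anchors and 1 interaction of 4 tags there. The run of 11 at chrX:82921904-91790671 covered 8.87 Mb with 6 interactions of at most 5 tags and no mutant anchor, although each of its 11 anchors had a CTCF peak in both peak lists. The run of 10 at chr15:41804498-51509454 covered 9.70 Mb, had interactions of up to 11 tags and also held no mutant anchor. Wild-type interactions with an end in these 3 stretches were missing from the mutant list by the rule that chose the runs. Inside them the mutant list held no interaction other than the 1 on chromosome 16.

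The other 2 long runs were denser. The run of 10 at chr8:71792190-73109886 covered 1.32 Mb with 58 CH12 CTCF peaks, and between its absent anchors stood 9 mutant-only anchors, with 6 mutant interactions of 24 tags in all inside the run. Here 1 set of anchors was listed in wild-type cells and another, interleaved with it, in the mutant. The run of 10 at chr14:27125419-27802688 covered 677 kb. It held 1 mutant anchor, and 3 mutant interactions passed over its whole length.

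Sparse surroundings went with absence more widely. The absent share was 52.2% among wild-type anchors with at most 1 other anchor within 500 kb and 40.9% with 2 to 4. It was 34.7% with 5 to 9, 31.3% with 10 to 14 and 28.5% with 15 or more. The median absent anchor had 10 other anchors within 500 kb and its nearest at 22.8 kb, while anchors in both lists had 12 and 19.3 kb.

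CTCF peaks were present at nearly all absent anchors, which follows in part from the lists being mapped to CTCF peaks. The CH12 list, from wild-type cells, had a peak at 4285 of them (96.2%, 95.6 to 96.8%), beside 98.4% of all wild-type anchors and 99.4% of anchors in both lists. The B cell list, from resting and activated mouse B cells, had a peak at 4288 (96.3%, 95.7 to 96.8%), beside 98.2% of all wild-type anchors and 99.2% of those in both lists. Absent anchors thus made up 167 of the 218 wild-type anchors without a CH12 peak (76.6%). Of these 167, 147 (88.0%) had a B cell peak, and only 20 absent anchors had a peak in neither list.

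The strength of the peaks differed more than their presence. Scores are the authors' own, and each was read as a percentile within its list. The median CH12 percentile was 62.0 (61.0 to 63.0) at absent anchors, 79.1 (78.5 to 79.8) at anchors in both lists and 64.6 (63.6 to 66.1) at mutant-only anchors. It was lower at absent anchors than at anchors in both lists on 20 of 20 chromosomes. Mutant-only anchors, which the wild-type list leaves out, thus ranked close to absent ones in the wild-type CH12 peak list.

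The gap held within tag classes. At 3 tags the CH12 medians were 57.8 at absent anchors and 71.8 at anchors in both lists, at 4 tags 58.1 and 74.7, and at 5 to 6 tags 65.2 and 77.4. At 7 to 9 tags they were 69.4 and 79.8, and at 10 to 19 tags 76.8 and 83.5. The 29 absent anchors with 20 or more tags had a median of 70.1 (59.6 to 80.2) against 89.1 (88.1 to 90.2) for 735 in both lists. Single strong members did sit at peaks near the top of the list, as given for named anchors below.

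Read the other way, the absent share changed little over the lowest 3 deciles of CH12 score, at 59.7%, 61.5% and 57.5%, and was lower at every further decile, down to 15.4% in the highest. Among anchors whose strongest interaction had 3 or 4 tags it went from 73.2% in the second decile to 28.1% in the highest. Among those with 10 or more tags the course was not steady. The share was 29.0% in the second decile, where there were only 31 anchors, 8.16% in the third, 15.2% in the sixth and 5.50% in the highest.

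**Figure D3:**
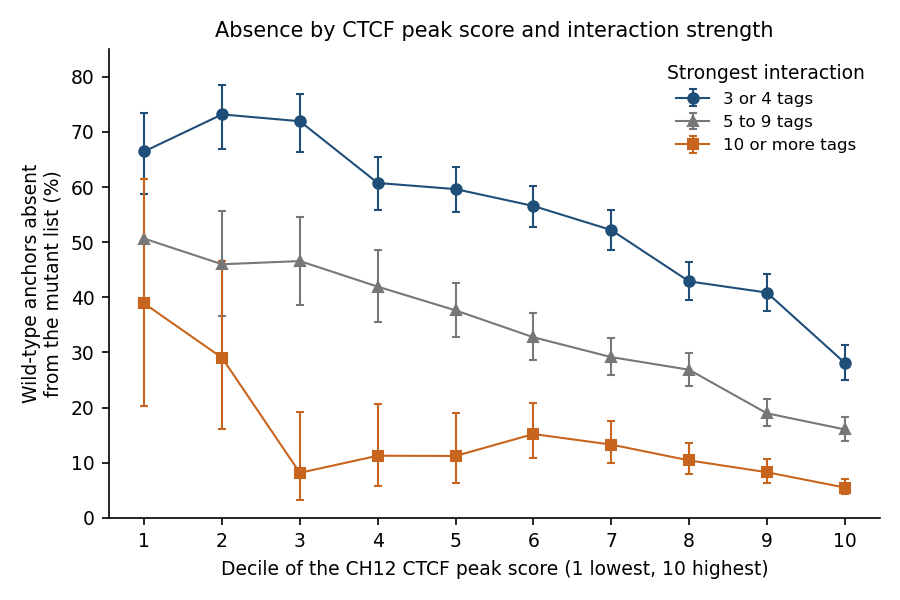
Percentage of wild-type anchors absent from the mutant list (vertical axis) by decile of the CH12 CTCF peak score (horizontal axis, 1 lowest), for anchors whose strongest interaction had 3 or 4 tags (circles), 5 to 9 tags (triangles) or 10 or more (squares), with 95% Wilson intervals. In the highest decile the 3 classes are apart, from 28.1% at 3 or 4 tags to 5.50% at 10 or more, and the lowest deciles of the strongest class hold few anchors.

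B cell peaks gave a split picture that depended on the measure. By q-value the median percentile was 75.1 (74.4 to 75.9) at absent anchors and 84.0 (83.6 to 84.4) at anchors in both lists, and it was lower on 20 of 20 chromosomes and in 10 of 10 deciles of CH12 score. By fold over background it was 71.7 (70.6 to 72.7) and 72.2 (71.6 to 72.6), with overlapping intervals, and lower on 14 of 20 chromosomes and in 8 of 10 deciles. Within tag classes the fold order varied. It was lower at absent anchors at 3 tags, 69.0 against 71.5, and nearly equal at 4, at 5 to 6 and at 10 to 19 tags. It was higher at absent anchors at 7 to 9 tags, 77.1 (74.1 to 79.5) against 72.1 (70.8 to 73.0), and at 20 or more tags, 81.7 (66.6 to 92.3, 29 anchors) against 70.9 (69.1 to 72.6), where the intervals overlapped. Mutant-only anchors stood at 69.0 by fold and 74.0 by q-value.

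Few absent anchors had a mutant anchor close by. A mutant anchor of any kind lay within 10 kb of 1213 of them (27.2%, 26.0 to 28.6%), at a median distance of 27.3 kb. Anchors in both lists had another mutant anchor within 10 kb more often, in 33.2% of cases, and mutant-only anchors had a wild-type anchor that close in 31.5%. A mutant-only anchor lay within 10 kb of 8.13% (7.36 to 8.97%) of absent anchors and 9.84% (9.25 to 10.5%) of anchors in both lists. At 5 kb the shares were 4.69% and 5.99%, and at 20 kb 13.9% and 15.6%, so at none of these distances were mutant-only anchors closer to the absent ones.

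The former partners of absent anchors, the anchors at the other end of their wild-type interactions, were 4771 distinct anchors. Of them 2945 (61.7%, 60.3 to 63.1%) were still in the mutant list, beside 67.1% of all wild-type anchors and 65.4% (63.8 to 66.9%) in reverse. Each former partner had lost at least 1 interaction by the rule, so a share below that of all wild-type anchors is partly built in. For 2626 absent anchors (59.0%) every partner was kept, and for 1438 (32.3%) none was. Where anchors are linked into groups by their interactions, 478 of 3236 wild-type groups (14.8%, 13.6 to 16.0%) were wholly absent, holding 1104 of the members (24.8%). These were small: 367 were single pairs and the largest had 6 anchors. In reverse, 267 of 2434 mutant groups (11.0%, 9.79 to 12.3%) were wholly mutant-only.

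The 2945 kept former partners had on average fewer partners in the mutant list than before, although new ones made up for part of the loss. In the wild-type list they had a mean of 2.58 partners, of which 1.23 were absent anchors. In the mutant list they had 2.28, of which 1.09 were partners they had before. The new ones divided into 0.47 at mutant-only anchors and 0.72 at anchors that the wild-type list also held. Partners became fewer at 44.4%, stayed equal at 33.9% and became more at 21.7%, and the median of summed tags went from 12 to 11. The 6150 anchors in both lists without an absent partner went from 1.59 to 2.03 partners, with more at 38.5% and fewer at 11.5%. The 2945 were chosen for having lost a partner to absence and the 6150 for having lost none that way. The contrast between them is therefore partly built in, as is that in reverse. In reverse, the partners of mutant-only anchors had 2.94 partners in the mutant list and 2.00 in the wild-type list, and fewer at 63.0%.

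For 739 of the kept former partners (25.1%) every wild-type partner was absent, so their whole set of partners changed. At 31.4% of the 2945 no wild-type partner was matched in the mutant list. Most, 2384, had lost 1 absent partner, and 561 had lost 2 or more.

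The 3 former partners that lost the most had different outcomes. The anchor at chr18:75758907-75760424 had 12 wild-type partners, all to its left, of which 6 were absent anchors carrying 43 of its 107 tags. In the mutant list it had 11 partners with 86 tags: 5 from before and 6 new, 2 of these mutant-only. The anchor at chr8:123636763-123638466 lost 4 of 8 partners to absence and had 5 in the mutant list, yet its tags went from 74 to 122, with 104 of them on the 3 matched partners that had held 53. The anchor at chr2:26501921-26503301 lost 4 of 10 and had 4 mutant partners, its tags going from 65 to 43. Tags were thus higher in the mutant list at 1 of the 3 and lower at the other 2.

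The next question was where the former partners reached in the mutant list, on the side where an absent anchor had been. Only former partners that the mutant list kept could be followed, which gave 3614 of 5706 ends. A kept anchor has a mutant partner by definition, so the share with one on that side is partly built in. The kinds of end compared with these below share this limit. A mutant partner on that side was found at 93.9% of them, and one beyond the position of the absent anchor at 2629 (72.7%, 71.3 to 74.2%). At 42.8% there was a nearer partner. Farther partners were partly old: at 41.3% of ends a farther partner was already listed in wild-type cells, and at 51.1% (49.5 to 52.7%) a farther one was new. The nearest new one lay a median of 105 kb (96.4 to 113 kb) beyond the absent anchor.

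These shares were set beside the 2948 ends whose wild-type interaction was also missing although both anchors remained in both lists. There, 80.6% had a mutant partner on the same side, 44.3% (42.5 to 46.1%) a farther one, 31.1% a new farther one and 52.2% a nearer one. Part of the gap was there in wild-type cells, since a farther partner already listed was found at 21.8% of these ends against 41.3% at absent anchors. At the 10800 ends of interactions in both lists, 47.9% had a farther mutant partner, 26.4% one already listed, 32.7% a new one and 37.0% a nearer one. Ends at absent anchors thus had a farther partner more often than both other kinds of end, while their share with a nearer one, 42.8%, lay between theirs. The order for farther partners was the same in reverse, so it was not particular to absent anchors. There the other kinds of end had 28.1% (interaction missing, both anchors kept) and 39.9% (interaction in both lists). In reverse, wild-type partners farther than a mutant-only anchor were found at 46.7% (44.9 to 48.5%) of 2971 ends, new ones at 25.4%, and nearer ones at 58.5%. The nearest new one lay a median of 69.7 kb beyond. Spans move with this: interactions missing from the mutant list for an absent end had a median of 119 kb, and those missing from the wild-type list for a mutant-only end 154 kb.

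Because a short interaction leaves more room beyond it, ends were also divided by span. Under 50 kb, 82.9% of ends at absent anchors had a farther mutant partner, against 58.7% when the anchor was kept. From 100 to 200 kb these were 73.3% and 44.2%, and from 400 kb 46.2% and 27.6%. The reverse shares for mutant-only anchors were lower in each span class, from 71.1% under 50 kb to 19.2% from 400 kb. The order of absent over kept anchors, and of wild-type over reverse, held in all 5 classes. In reverse, mutant-only anchors also lay above kept ones in all 5.

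**Figure D4:**
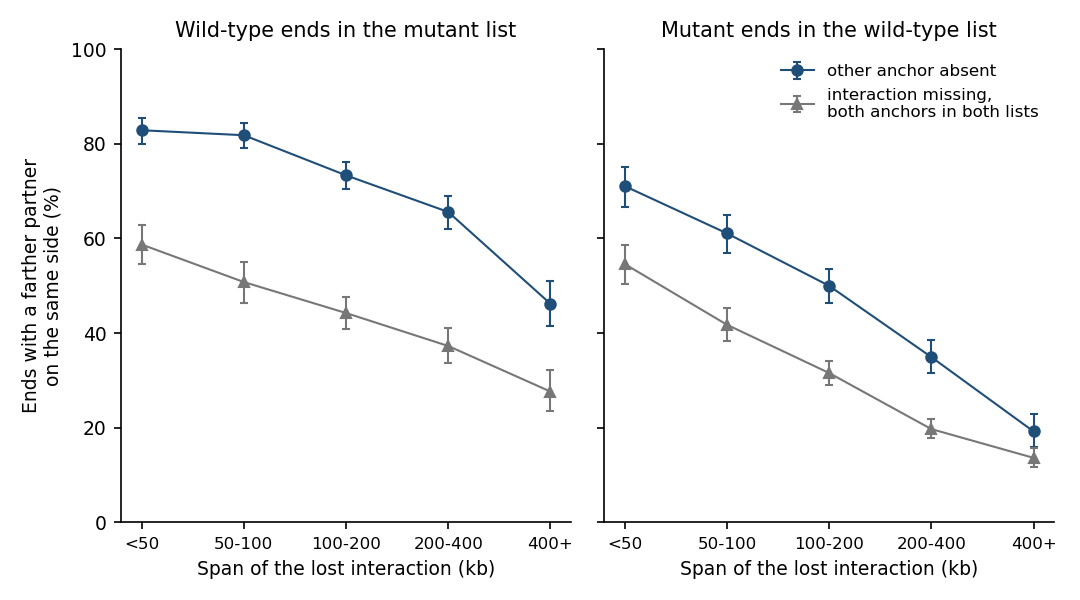
Percentage of interaction ends with a partner farther away on the same side in the other list (vertical axis) by the span of the lost interaction in kb (horizontal axis), with 95% Wilson intervals. The left panel follows wild-type ends into the mutant list and the right panel mutant ends into the wild-type list; circles are ends whose other anchor was absent and triangles ends that lost an interaction between anchors in both lists. On the left the circles run from 82.9% to 46.2% and lie above the triangles and above the circles on the right. The circles on the right also lie above their triangles.

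Some former partners were joined to a close neighbour of the absent anchor. At 1800 of the 3614 ends (49.8%) the mutant list held another anchor within 20 kb of the absent one on the same side of the former partner. The former partner was joined to such a neighbour in 65.7% (63.4 to 67.8%) of these cases in the mutant list and in 49.3% (47.0 to 51.6%) in the wild-type list, and in 28.2% it was a new joining. Where the interaction was missing but both anchors were kept, joinings to a neighbour were 44.2% in the mutant and 33.3% in the wild-type list. In reverse, for mutant-only anchors, they were 55.7% in the wild-type and 44.4% in the mutant list. Joinings to a neighbour were thus more frequent in the second list in each of these 3 settings. Since a neighbour was required to be an anchor of the second list, part of this is built into the count.

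Interactions passing over absent anchors, with an anchor on each side, were more numerous in the mutant list, as they were over other anchors. A mean of 1.32 wild-type and 1.86 mutant interactions passed over an absent anchor, a ratio of 1.40, with a median of 1 in both lists. At 41.6% of absent anchors more passed over in the mutant list and at 17.9% fewer. Anchors in both lists had means of 1.23 and 1.63, a ratio of 1.33, with more at 37.7%. Of the 1968 absent anchors with none in wild-type cells, 767 (39.0%) had at least 1 in the mutant list, beside 37.2% of anchors in both lists.

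The 3 absent anchors with the most tags gave pictures that differed in part. The one with the most, at chr7:4378385-4379796, had 5 partners, all to its left, with 65 tags in all and 29 on the strongest. Its CH12 peak stood at percentile 99.3. In the mutant list 4 of the 5 partners were absent as well, each of them having had no other wild-type partner. The one that remained, at chr7:4082477-4083387, had 18 tags with the absent anchor. In the mutant list it had 4 tags with an anchor 96.8 kb beyond it. The nearest mutant anchor lay 95.4 kb away, and that farther interaction was the only one that any of the 5 former partners had in the mutant list.

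The anchor with the most partners, at chr10:127111246-127112526, had 7, with 3 to its left and 4 to its right, and 64 tags. Its CH12 peak was at percentile 99.1. An anchor in both lists stood 2.11 kb away, at chr10:127114633-127115843. In the mutant list 6 of the 7 former partners remained, and 5 of these 6 were joined to that neighbour, against 2 of the 6 in the wild-type list. For the partner at chr10:127078333-127080167, the tags with the absent anchor were 18 in wild-type cells, and those with the neighbour were 11 in wild-type cells and 28 in the mutant. The partner at chr10:127099422-127100390 had been joined to the absent anchor alone, with 9 tags, and was joined to the neighbour alone, with 4 tags, in the mutant. Here the former partners mostly reached to a site a few kb away.

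The anchor at chr12:33694639-33695600 was one whose former partners all reached farther. It had 3 partners to its left, 57.6, 89.9 and 99.7 kb away, with 20, 11 and 24 tags. Its CH12 peak was at percentile 74.7, and the nearest mutant anchor lay 16.0 kb away. All 3 former partners were kept, and they had 4, 4 and 5 mutant partners on that side, every one of them beyond the absent anchor. One of these was that nearest mutant anchor, at chr12:33711632-33713877, with 4, 6 and 4 tags. None of the 3 former partners was joined to it in wild-type cells, so a close neighbour was newly joined here as well. The outermost had 5 tags in wild-type cells with an anchor 370 kb beyond the absent one, and 38 tags with it in the mutant. Interactions passing over the absent anchor went from 2 to 13.

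**Figure D5:**
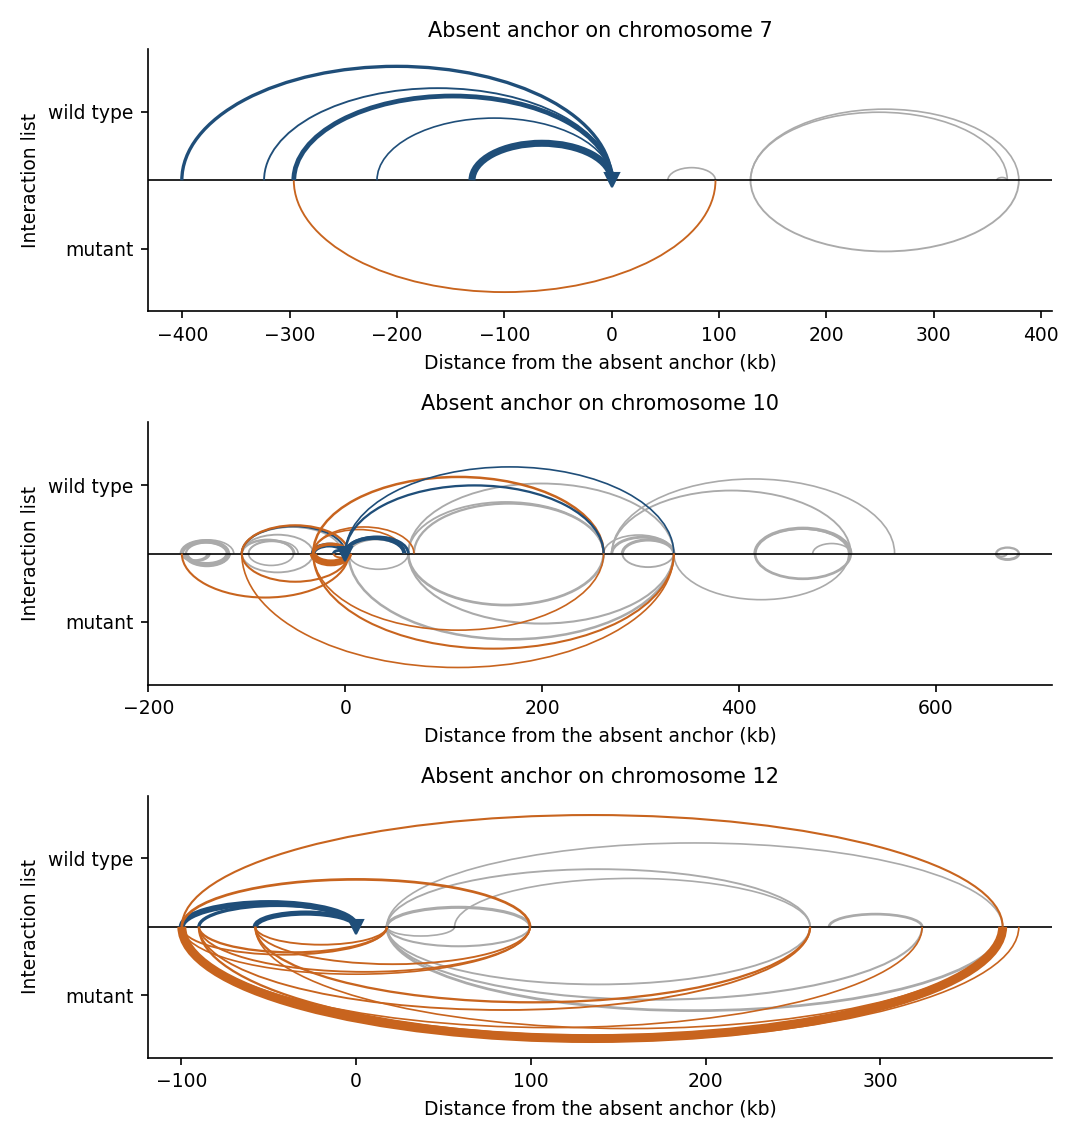
Interactions around the 3 absent anchors with the most summed tags; the horizontal axis gives distance from the absent anchor (triangle) in kb, with wild-type interactions above the line and mutant ones below, and wider lines for more tags. Blue arcs end at the absent anchor, orange arcs pass over it and grey arcs do neither. On chromosome 12 the 3 blue arcs have no mutant counterpart, while 13 orange arcs pass over in the mutant list against 2 in the wild-type list.

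Other strong members lay between these cases. The anchor at chr3:87875341-87876381 had 5 partners to its left with 41 tags. All 5 were kept and each had a mutant partner beyond it, and interactions passing over went from 1 to 8. The anchor at chr12:32829162-32830017 had 48 tags, 36 of them with a partner that was kept. The 3 mutant partners of that kept anchor on this side all lay farther, but each was already its partner in wild-type cells. Interactions passing over the absent anchor went from 4 to 3. The anchor at chr5:135382449-135383693 had 44 tags, 35 of them with a partner 58.6 kb away. That partner was kept with 1 mutant partner, nearer than the absent anchor, and none passed over in either list.

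Of the 2 remaining anchors with many partners, that at chr2:180206883-180208415 had 6 with 26 tags, 4 of them kept. That at chr16:56919994-56921247 had 5 with 42 tags, 4 of them kept, and 2 interactions passed over it in each list. Their nearest mutant anchors lay 92.5 and 119 kb away. A larger number of interactions passing over was thus not shared by all strong members.

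Among members with at least 5 tags, 4 sat at CH12 peaks of score 3100, percentile 99.7, above any other member of this kind. That score was shared by 176 peaks of the CH12 list, in which the highest score was 3233.06. The 4 anchors were at chr18:82631190-82632191 with 19 tags, chr11:106993196-106994282 with 9, chr5:136520140-136522499 with 8 and chr9:117948868-117950254 with 6. They had 2, 2, 2 and 1 partners. The first 3 each had a mutant-only anchor as the nearest mutant anchor, 6.61, 7.02 and 9.44 kb away, whereas only 8.13% of all absent anchors had one within 10 kb. For the fourth the nearest mutant anchor lay 12.1 kb away and was in both lists. The fifth by score, at chr5:135382449-135383693, had a peak of score 2929.57. Its nearest mutant anchor, 9.785 kb away, was in both lists, and its nearest mutant-only anchor lay 105 kb away. These anchors were few and were chosen by their peak score, so the nearness is given as a description.

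The 29 absent anchors with an interaction of 20 or more tags lay on 15 chromosomes and shared 25 such interactions. For 19 of them the partner in the strongest interaction was still in the mutant list, and 5 of the interactions joined 2 absent anchors.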

How the data were processed

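CTCF ChIA-PET interactions of wild-type and mutant CH12 cells (1 library each) were compared, with CTCF peaks of wild-type CH12 cells and of resting and activated B cells. Interactions hold counts of supporting tags as deposited; per the file headers, both ends were placed on CTCF peaks that had a core motif, and loops needed 3 tags and a size within 2 Mb. Each CH12 peak has a score given by the authors, and the B cell list has a deposited fold over background (a ratio) and a deposited −log10 q-value. The submitters' processing notes name mm9 as build, and BWA, Bowtie 1.1.1, bedtools 2.25, SAMtools 1.2 and CASAVA 1.8.2 as tools. The sources used here name no interaction caller and do not say if libraries were pooled for peaks.

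Anchors were matched by identical coordinates. A peak belonged to an anchor when they overlapped by at least 1 bp, and the highest value was kept. Percentiles are ranks within a peak list. An interaction passed over an anchor when its anchors lay on either side. Named anchors were the 5 absent anchors with most partners, the 5 with most summed tags, the 5 at the highest CH12 score with at least 5 tags, the 5 longest runs, and the 3 kept former partners that lost most. Members, lists and rules were chosen with earlier results of these data known. The counts of neighbours joined within 20 kb were added later. No test was made, and no sequence or gene name was used, for lack of an mm9 genome here. Alternatives were other matching distances, tag limits, partner numbers, run lengths and peak cutoffs. Scripts were tested on simulated data. Python 3.11.15 was used with numpy 2.4.6, pandas 2.3.3, scipy 1.17.1, networkx 3.6.1 and matplotlib 3.10.9.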

Additional observations from a re-analysis of the deposited data

How the results depend on the processing

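Of 25 alternatives to 12 results, 7 stayed within the interval of the first value and 18 moved. They are single shares or medians, so the alternatives bear on their size only. No paired analysis was possible because each genotype had a single ChIA-PET library. The share of absent anchors was 27.1% and 23.9% when a mutant anchor within 5 or 10 kb counted as present, and 25.3% and 20.3% of anchors with 4 or 5 tags or more. On chromosome X it was 43.5% at 5 tags or more. Of absent anchors, 84.4% had 1 partner at 4 tags or more, and 68.0% of those with 3 or more partners were one-sided. Runs of 5 or more held 14.1%, and runs of 3 or more held 25.04% when a mutant anchor within 10 kb broke them. Peaks of at least the median CH12 score were at 63.5%, B cell peaks at or above the median fold at 76.1%, and the CH12 percentile was 76.0 at 10 tags or more. A mutant anchor lay within 5 kb of 17.5% and within 50 kb of 64.9%. At 5 tags or more 68.3% of former partners were kept. Farther partners were found at 51.1% of ends when only new interactions counted and 69.3% at 5 tags or more in both lists, where the median number passing over was 0. The limit of 3 tags and the missing library depths bound every absence here: an absent anchor may have had 1 or 2 tags.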
